A study of Mus musculus with 6 samples.

Results

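The immediate early genes described here are 10 genes, Fos, Fosb, Jun, Junb, Egr1, Nr4a1, Ier2, Atf3, Dusp1 and Zfp36, out of 25860 genes counted by RNA-seq in mouse lung. They were chosen by name after their levels in these same libraries had been looked at, so the difference between the groups helped to choose them. Their levels and fold changes are therefore a description, and no test is given for them. All 10 were among the 17231 genes with enough reads to be compared, and each had between 332 and 7834 reads over the 6 libraries.

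The lungs came from 6 mice, 3 RAG1-/- (replicates 1 to 3) and 3 RAG1-/- Sgo1-/+ (replicates 4 to 6), all 12 months old, bred on the C57BL/6 background, untreated, and sampled where the tissue looked normal. Both groups carry the homozygous loss of Rag1, a recombinase that lymphocytes need to assemble antigen receptors, so mature T and B cells should be missing from both. The second group also lacks 1 copy of Sgo1 in the germline. Sgo1 encodes Shugoshin-1, a protector of centromeric cohesion, and its partial loss serves as a model of chromosome instability. The comparison asks what that instability does to the lung, and the loss of Sgo1 affects every cell of the animal, not the lung alone.

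Immediate early genes are transcribed within minutes of a growth factor, cytokine, mechanical or stress signal, without new protein synthesis, and their mRNAs decay fast. Kinase cascades reach them through serum response factor with its ternary complex partners and through CREB, which are already present on or near their promoters. Fos and Jun proteins pair to form the transcription factor AP-1, Egr1 and Nr4a1 are DNA-binding factors of their own, and Dusp1 and Zfp36 turn the response off again. In solid tissue they are also known to respond to handling and dissection, and the time from death to RNA extraction is not given in the sources used here.

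Promoter sequences were searched for an exact word that CREB recognizes. The 250 bases before the start are printed 5′ to 3′ on the gene's own strand, from RefSeq on GRCm38.p6, for Fos, Nr4a1 and Dusp1, whose levels did not overlap between the groups, and for Jun, whose level was alike in both. The capitals mark TGACG, the core of the cyclic AMP response element, or its reverse complement CGTCA. Only exact matches were marked and counted, so a near match such as tgacatca in the Jun window was left out.
Fos, chr12:85473640-85473889, plus strand: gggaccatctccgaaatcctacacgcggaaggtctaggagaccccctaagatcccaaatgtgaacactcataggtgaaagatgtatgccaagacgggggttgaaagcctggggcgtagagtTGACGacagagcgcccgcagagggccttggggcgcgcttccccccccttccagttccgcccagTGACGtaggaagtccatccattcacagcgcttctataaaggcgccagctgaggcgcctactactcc
Nr4a1, chr15:101266596-101266845, plus strand: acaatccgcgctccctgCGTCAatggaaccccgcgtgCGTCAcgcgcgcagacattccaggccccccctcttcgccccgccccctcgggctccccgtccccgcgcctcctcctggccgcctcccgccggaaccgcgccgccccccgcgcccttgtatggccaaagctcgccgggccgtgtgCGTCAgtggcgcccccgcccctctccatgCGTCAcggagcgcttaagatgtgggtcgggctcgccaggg
Dusp1, chr17:26508473-26508722, minus strand: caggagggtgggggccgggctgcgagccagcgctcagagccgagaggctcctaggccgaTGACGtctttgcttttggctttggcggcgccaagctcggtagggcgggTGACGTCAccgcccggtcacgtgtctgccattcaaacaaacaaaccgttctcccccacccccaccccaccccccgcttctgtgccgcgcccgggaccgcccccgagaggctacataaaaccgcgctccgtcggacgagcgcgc
Jun, chr4:95052223-95052472, minus strand: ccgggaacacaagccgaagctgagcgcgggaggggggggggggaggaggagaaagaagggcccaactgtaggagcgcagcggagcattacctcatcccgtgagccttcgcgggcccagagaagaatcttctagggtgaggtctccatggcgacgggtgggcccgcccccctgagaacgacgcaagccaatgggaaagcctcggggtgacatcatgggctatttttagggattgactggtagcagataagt

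Promoter sequence was matched for 8 of the 10 genes, all but Egr1 and Ier2. The TGACG core, searched on both strands, was in 6 of these 8 windows, against 17.7% of 32817 mouse promoter windows of the same length. The 8 windows had a GC content of 58.4% to 74.4%, and the windows they were set against were not matched for it. Fos held 2 copies, 129 and 66 bases before the start. Nr4a1 held 4 copies, at 233, 213, 69 and 40 bases. Dusp1 held 3 matches, of which 2 overlap within a full palindrome TGACGTCA, an 8-base word found in 1.55% of all windows. Fosb, Junb and Atf3 held 1 copy each, at 60, 106 and 7 bases before the start. The windows of Jun and Zfp36 held no exact copy. The AP-1 word TGANTCA was in 0 of the 8 windows (6.75% of all), and the Egr1-type word GCGNGGGCG was in 3, those of Fosb, Zfp36 and Nr4a1 (4.70% of all). The CArG box, bound by serum response factor, was found in the window of Zfp36 and in 1.47% of all. Sites farther upstream than these windows were not searched, nor were the promoters of Egr1 and Ier2. These matches describe letters in a window and do not show that a factor bound there. Any relation between the number of copies and the levels of the genes was not tested.

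The libraries held between 3205822 and 9366774 reads counted on genes, so a gene with 3 reads stood at 0.320 to 0.936 CPM (reads per 1000000 counted reads). The defining genes of lung epithelium were abundant in every library. The library labelled RAG1-/- replicate 2 went against its label, with 1853 reads of the immunoglobulin light chain Igkc against 0 to 8 in the others. RAG1-/- Sgo1-/+ replicate 6 was the shallowest library and held 6083 CPM of the macrophage chitinase-like gene Chil3, against 238 to 651 elsewhere. RAG1-/- replicate 1 alone had many Xist reads (7717, against 4 to 8), so it differed from the other libraries in sex. In whole tissue, fewer cells of a type and less RNA per cell cannot be told apart.

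Over the 10 genes, 9 were lower and 1 was higher in RAG1-/- Sgo1-/+ lung, with a median log2 fold change of -0.39. Among all 17231 genes tested, 7770 (45.1%) were lower and the median was 0.034. Nr4a1, Egr1, Fos and Fosb were at least 2-fold lower, as were 531 genes (3.08%) of all tested. The levels of Fos, Nr4a1 and Dusp1 did not overlap between the groups, a pattern that 5.54% of all genes showed in this direction and 6.24% in the other. Among the 10 genes, 0 were apart in the higher direction. None of these counts is read as a result, because the genes were selected on this contrast. By edgeR's quasi-likelihood test with Benjamini-Hochberg adjustment, 0 of 17231 genes (0%) passed an adjusted P under 0.05 with a 2-fold difference, and 976 genes had an unadjusted P under 0.05. The smallest adjusted P of any gene was 0.832. The DESeq2 test called 1 gene (Awat1, with reads in a single library) and limma-voom 0, with 694 and 837 genes at an unadjusted P under 0.05.

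**Figure D1:**
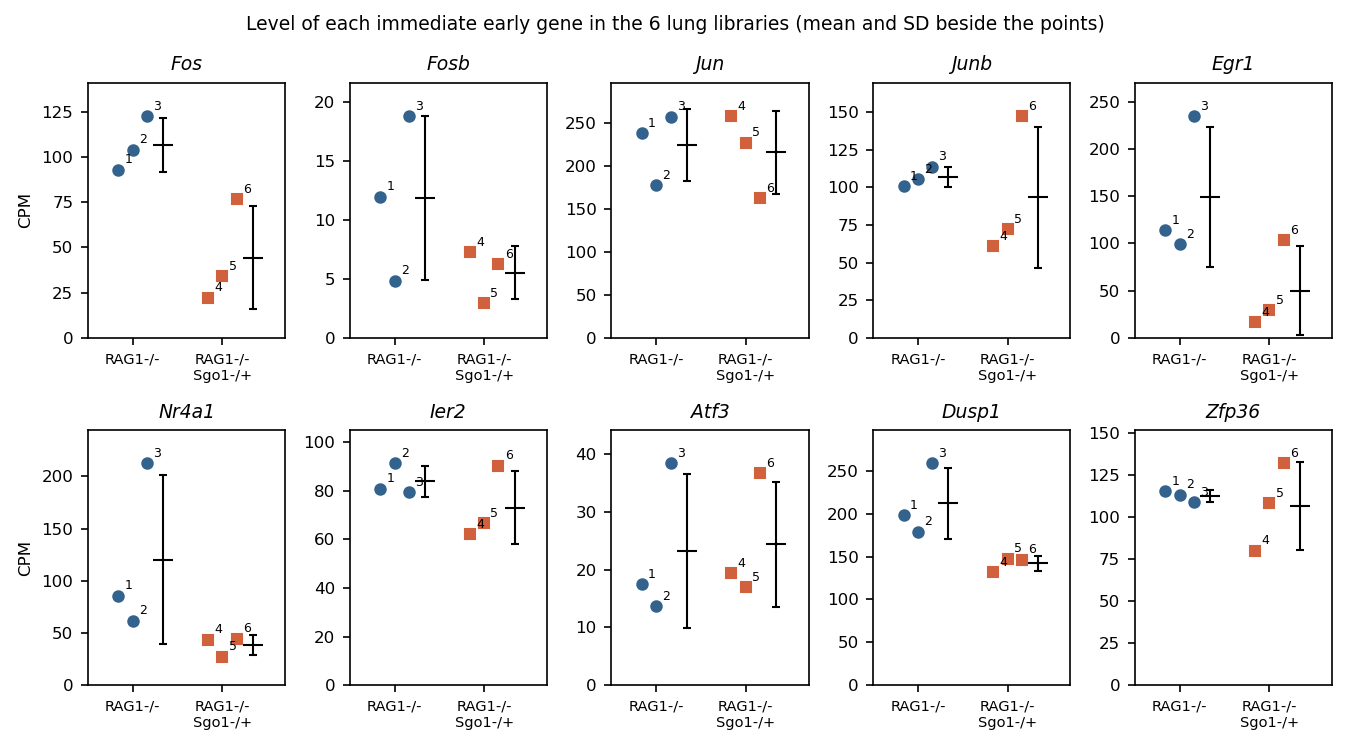
CPM (vertical axes, linear, from 0) of each of the 10 genes in each library, with circles for RAG1-/- replicates 1 to 3, squares for RAG1-/- Sgo1-/+ replicates 4 to 6, and the mean and SD of 3 libraries beside them. Fos, Nr4a1 and Dusp1 show no overlap between the groups. RAG1-/- Sgo1-/+ replicate 6 passes the RAG1-/- range for Junb and Zfp36, and lies within it for Egr1, Fosb, Ier2 and Atf3.

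Fos encodes the best known partner of Jun in AP-1. It had 872, 515 and 810 reads in RAG1-/- lungs against 110, 184 and 246 in RAG1-/- Sgo1-/+ lungs. Scaled to depth, these were 93.1, 104 and 123 CPM against 22.2, 34.1 and 76.7 CPM. All RAG1-/- libraries were close together and above the other group, whose replicate 6 came nearest to them. The means were 107 ± 14.9 and 44.3 ± 28.7 CPM (SD, n = 3 each), and the fitted fold change was -1.29 on the log2 scale (SE 0.36), or 2.45-fold lower in RAG1-/- Sgo1-/+. It ranged from -1.92 without RAG1-/- Sgo1-/+ replicate 6 to -0.96 without replicate 4 of that group. The within-group SD on the log2 scale was 0.20 in RAG1-/- lungs against 0.90 in RAG1-/- Sgo1-/+ lungs.

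Fosb, a close relative of Fos that is also made as a truncated form in chronically stimulated tissue, was the least abundant of the 10. It had 12.0, 4.85 and 18.8 CPM in RAG1-/- lungs against 7.27, 2.96 and 6.24 CPM in RAG1-/- Sgo1-/+ lungs. The groups overlapped, since RAG1-/- replicate 2 lay below 2 of the 3 RAG1-/- Sgo1-/+ libraries. These levels rest on 16 to 124 reads per library. On the log2 scale the fold change was -1.14 (SE 0.49), or -0.66 without RAG1-/- replicate 3 and -1.49 without RAG1-/- replicate 2.

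Jun, the partner that can also pair with itself, was the member with the most reads, 2230, 880 and 1700 in RAG1-/- lungs against 1276, 1226 and 522 in RAG1-/- Sgo1-/+ lungs. Its levels of 238, 178 and 257 CPM and of 258, 227 and 163 CPM covered the same range. Jun had a log2 fold change of -0.055 (SE 0.19), whose sign turned without RAG1-/- Sgo1-/+ replicate 6 (0.11) and without RAG1-/- replicate 3 (0.055). The library with the lowest Jun level, RAG1-/- Sgo1-/+ replicate 6, was the one with the highest Junb level.

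Junb, which antagonizes Jun at many promoters, had 101, 105 and 114 CPM in RAG1-/- lungs against 61.0, 72.2 and 147 CPM in RAG1-/- Sgo1-/+ lungs. In RAG1-/- Sgo1-/+, 2 libraries lay below all RAG1-/- libraries and replicate 6 lay above them. The SD on the log2 scale was 0.087 in RAG1-/- lungs against 0.67 in RAG1-/- Sgo1-/+ lungs. The log2 fold change of -0.20 (SE 0.28) became -0.68 without RAG1-/- Sgo1-/+ replicate 6 and 0.031 without replicate 4 of that group.

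Egr1, a zinc finger factor that many growth factors and stretch induce, differed most between single libraries. It had 1068, 489 and 1550 reads in RAG1-/- lungs against 82, 159 and 332 in RAG1-/- Sgo1-/+ lungs, which is 114, 98.8 and 235 CPM against 16.6, 29.5 and 104 CPM. The groups overlapped only through RAG1-/- Sgo1-/+ replicate 6, which lay just above RAG1-/- replicate 2. The highest and lowest libraries differed 14.2-fold, more than for any other of the 10 genes. The log2 fold change was -1.62 (SE 0.57), or 3.07-fold lower. Without RAG1-/- Sgo1-/+ replicate 6 it was -2.69, and without RAG1-/- replicate 3 it was -1.13.

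Nr4a1, an orphan nuclear receptor also called Nur77, had 804, 306 and 1404 reads in RAG1-/- lungs against 215, 147 and 143 in RAG1-/- Sgo1-/+ lungs. The levels were 85.8, 61.8 and 212 CPM against 43.4, 27.2 and 44.6 CPM. RAG1-/- replicate 3 stood well above all other libraries, and even the lowest RAG1-/- library lay above the highest of the other group. The log2 fold change was -1.65 (SE 0.41), or 3.14-fold lower, within its error of that of Egr1, and it was -0.95 without RAG1-/- replicate 3. Unlike Fos and Junb, Nr4a1 varied more within RAG1-/- (SD 0.92 on the log2 scale) than within RAG1-/- Sgo1-/+ (0.40).

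Atf3, a stress-induced repressor of the CREB family, was the one gene with a higher mean in RAG1-/- Sgo1-/+. Its levels were 17.5, 13.7 and 38.4 CPM in RAG1-/- lungs against 19.4, 17.0 and 36.8 CPM in RAG1-/- Sgo1-/+ lungs. Each group held 2 low libraries and 1 high one, so the groups overlapped fully. The log2 fold change of 0.043 (SE 0.40) went from -0.36 without RAG1-/- Sgo1-/+ replicate 6 to 0.61 without RAG1-/- replicate 3. Ier2, a small nuclear protein of the same response, had 80.9, 91.3 and 79.6 CPM against 62.2, 66.7 and 90.5 CPM. Here too RAG1-/- Sgo1-/+ replicate 6 lay within the RAG1-/- range and the other 2 lay below it (log2 fold change -0.20, SE 0.16).

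The pair of members that end the response behaved differently from each other. Dusp1, a phosphatase that inactivates p38, JNK and ERK, had 199, 179 and 259 CPM in RAG1-/- lungs against 132, 148 and 147 CPM in RAG1-/- Sgo1-/+ lungs. All RAG1-/- libraries lay above all libraries of the other group, in which the values were close together. The means were 212 ± 41.5 and 142 ± 8.79 CPM (SD, n = 3 each), a log2 fold change of -0.58 (SE 0.15), and leaving out single libraries gave -0.69 to -0.41. Zfp36, or tristetraprolin, which binds AU-rich elements of short-lived mRNAs and has them degraded, had 115, 113 and 109 CPM against 79.8, 108 and 132 CPM. The RAG1-/- values lay inside the span of the other group. Its log2 fold change was -0.080 (SE 0.17), and it was 0.091 without RAG1-/- Sgo1-/+ replicate 4.

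**Figure D2:**
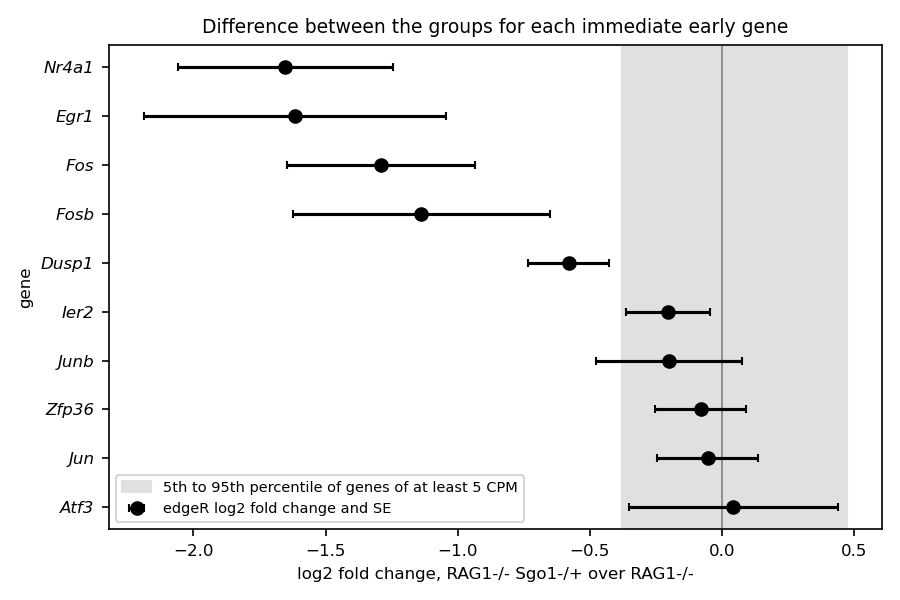
Log2 fold change of RAG1-/- Sgo1-/+ over RAG1-/- with its SE (horizontal axis) for each of the 10 genes, over a grey band from the 5th to the 95th percentile of the 12760 genes of at least 5 CPM. Nr4a1, Egr1, Fos, Fosb and Dusp1 lie below the band, which runs from -0.38 to 0.47, and the other 5 genes lie within it.

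The spread within a group was wide for most of the 10 genes. The median within-group SD on the log2 scale was 0.57, against 0.22 for the 12760 genes of at least 5 CPM. It was largest for Egr1 (1.06), which exceeded 98.9% of those genes, and then for Fosb (0.81) and Nr4a1 (0.71). It was smallest for Dusp1 (0.20), above 45.1% of genes, and Ier2 (0.22) was above 49.5%. Zfp36 (0.26) exceeded 61.4% of genes and Jun (0.31) 72.9%. From the lowest to the highest of the 6 libraries, Ier2 spanned 1.47-fold and Jun 1.58-fold.

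The same few libraries were high or low for many of the genes. RAG1-/- replicate 3 had the highest level of 6 of the 10 genes, and on average the genes stood 0.76 above their own mean there on the log2 scale. RAG1-/- Sgo1-/+ replicate 4 had the lowest level of 6 genes and an average of -0.59, close to the -0.57 of replicate 5. RAG1-/- Sgo1-/+ replicate 6 averaged 0.13, between RAG1-/- replicate 2 (0.011) and RAG1-/- replicate 1 (0.26). By this average, 2 of the 3 RAG1-/- Sgo1-/+ libraries lay below all RAG1-/- libraries and the shallowest lay among them. The row of the 28S ribosomal RNA gene, Rn28s1, a sign of how much ribosomal RNA was left in a library that was chosen after its values were seen, had the same order over the 6 libraries as this average. It took 0.0110%, 0.00295% and 0.0424% of the reads in RAG1-/- lungs against 0.00184%, 0.00293% and 0.00658% in RAG1-/- Sgo1-/+ lungs, a log2 fold change of -2.34 (SE 0.79, unadjusted P = 0.0145, adjusted P = 0.832, edgeR). The shared order rests on close values and on the setting. For Rn28s1, RAG1-/- replicate 2 and RAG1-/- Sgo1-/+ replicate 5 were nearly equal. With TMM scaling, RAG1-/- Sgo1-/+ replicates 4 (-0.583) and 5 (-0.592) changed places in the average. By the median over the 10 genes, RAG1-/- Sgo1-/+ replicate 6 (0.24) passed RAG1-/- replicate 1 (0.17). The part of RNA quality or library preparation in the levels of the 10 genes was not tested.

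**Figure D3:**
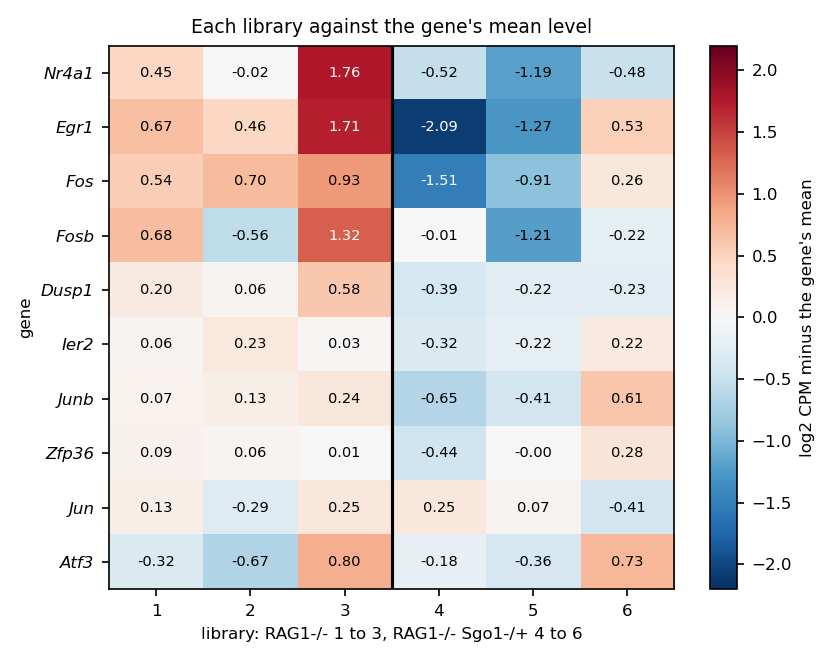
Log2 CPM of each gene in each library minus the gene's mean over the 6 libraries, as colour and printed value, with RAG1-/- replicates 1 to 3 to the left of the line and RAG1-/- Sgo1-/+ replicates 4 to 6 to the right. RAG1-/- replicate 3 is highest for Nr4a1 (1.76) and Egr1 (1.71), and RAG1-/- Sgo1-/+ replicate 4 is lowest for Egr1 (-2.09) and Fos (-1.51).

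Levels can be compared between genes per length of transcript, in CPM per kilobase of the longest coding transcript. On that scale Dusp1 was the most abundant in RAG1-/- lung (107 ± 20.9), followed by Jun (70.4), Junb (59.0), Ier2 (55.2), Fos (50.6), Nr4a1 (47.0), Zfp36 (40.2), Egr1 (33.3), Atf3 (11.7) and Fosb (3.14). In RAG1-/- Sgo1-/+ the order from Jun (67.7) and Junb (51.7) to Ier2 (48.0) was kept behind Dusp1 (71.4 ± 4.42), and Zfp36 (38.2) came next. Fos (21.0), Nr4a1 (15.1), Atf3 (12.3) and Egr1 (11.1) then followed, with Fosb (1.45) last. From Jun to Egr1 in RAG1-/-, the libraries of each pair of neighbours overlapped, whereas Dusp1 lay above Jun, Atf3 below Egr1 and Fosb below Atf3 in every library. In RAG1-/- Sgo1-/+ neighbours overlapped throughout except for Fosb, which lay below Egr1 in every library.

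Ratios of reads within a library do not depend on the scaling of that library. Fos over Jun was 0.391, 0.585 and 0.476 in RAG1-/- lungs against 0.0862, 0.150 and 0.471 in RAG1-/- Sgo1-/+ lungs. Fos over Junb was 0.922, 0.987 and 1.08 against 0.364, 0.472 and 0.521. In the library with the highest Junb of all, RAG1-/- Sgo1-/+ replicate 6, Fos was thus still low relative to Junb, and this ratio kept the groups apart while Fos over Jun did not. Fos over Zfp36 was also apart, at 0.809, 0.920 and 1.13 against 0.278, 0.316 and 0.583. Egr1 over Jun was 0.479, 0.556 and 0.912 against 0.0643, 0.130 and 0.636, with RAG1-/- Sgo1-/+ replicate 6 inside the RAG1-/- range. Nr4a1 over Jun was 0.361, 0.348 and 0.826 against 0.168, 0.120 and 0.274. These ratios restate the levels that chose the genes and are given without a test.

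Related genes from lists that the 10 genes are not part of lay on both sides. The 62 tested genes of 4 lists (other AP-1 and small Maf subunits, other immediate early transcription regulators, secreted and surface immediate early genes, and feedback regulators) had 36 higher and 26 lower, with a median log2 fold change of 0.085 against 0.034 for all genes. Of the 62, 4 were higher and 2 lower at an unadjusted P under 0.05 in the edgeR test, where 3.15% and 2.52% of all genes were, and 0 were called after adjustment. Levels did not overlap between the groups for 5 of the 62 in each direction. Among all genes tested, 6.24% were apart in the higher and 5.54% in the lower direction. The smallest adjusted P in these lists was 0.832. The lists were written with earlier results of these data known.

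Among the 12 other AP-1 and small Maf subunits, 10 were higher and 2 lower, with a median of 0.45. Jund, the constitutively expressed member of the Jun family, had 246, 221 and 233 CPM in RAG1-/- lungs against 349, 307 and 342 CPM in RAG1-/- Sgo1-/+ lungs, so that every RAG1-/- Sgo1-/+ library lay above every RAG1-/- library. Its log2 fold change was 0.51 (SE 0.12, unadjusted P = 0.00156, adjusted P = 0.832, edgeR), and leaving out single libraries gave 0.48 to 0.57. Jdp2, a repressor that dimerizes with Jun (0.50, SE 0.23), and the small Maf gene Mafg (0.40, SE 0.20) overlapped between the groups. The Fos relative Fosl2, named after its values were seen, had 102, 104 and 158 CPM against 121, 99.8 and 122 CPM.

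Reads of Fos over reads of Jund were 0.379, 0.472 and 0.526 in RAG1-/- lungs against 0.0637, 0.111 and 0.224 in RAG1-/- Sgo1-/+ lungs. Summed over Fos, Fosb, Fosl1 and Fosl2, the Fos family had 242 ± 51.7 CPM in RAG1-/- lungs against 167 ± 35.6 CPM in RAG1-/- Sgo1-/+ lungs (SD, n = 3 each). The single libraries of this sum nearly met, at 210, 214 and 301 CPM against 154, 140 and 207 CPM. Summed over Jun, Junb and Jund, the Jun family had 585, 504 and 604 CPM in RAG1-/- lungs against 668, 607 and 652 CPM in RAG1-/- Sgo1-/+ lungs. The family sums and the ratio to Jund were chosen after the values were seen.

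Of 17 other immediate early transcription regulators tested, 10 were higher and 7 lower with a median of 0.079, and 0 passed an unadjusted P under 0.05. That count was 3 without RAG1-/- Sgo1-/+ replicate 6, 2 without RAG1-/- replicate 3 and 1 without RAG1-/- replicate 1. Among all genes tested in these settings, the counts were 850 of 17049, 571 of 16971 and 1194 of 16829. Klf10, a repressor induced by TGF-beta, had a log2 fold change of -0.23 (SE 0.13), Ier3, a survival factor, -0.31 (SE 0.16), and Myc 0.46 (SE 0.26). Relatives of the lowest members overlapped between the groups. Egr2 had 11.3, 6.06 and 13.9 CPM against 4.44, 7.04 and 25.3 CPM, and Nr4a2 had 11.3, 8.89 and 12.4 CPM against 10.3, 12.8 and 5.61 CPM, so that high and low libraries were found in both groups. Egr2 and Nr4a2 were named after their values were seen.

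Of the 12 secreted and surface immediate early genes, 5 were higher and 7 lower, with a median of -0.12. Cyr61, a matrix-associated protein induced by stretch and serum and now called Ccn1, had 313, 295 and 541 CPM in RAG1-/- lungs against 199, 124 and 250 CPM in RAG1-/- Sgo1-/+ lungs. The groups did not overlap, and the level was highest in RAG1-/- replicate 3, as for Egr1 and Nr4a1. The log2 fold change was -1.01 (SE 0.28, unadjusted P = 0.00524, adjusted P = 0.832, edgeR), and -0.67 without that library. Plaur, the urokinase receptor, was at 0.60 (SE 0.27) and the neutrophil attractant Cxcl1, with 2 to 17 reads per library, at 1.02 (SE 0.69).

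Of the 21 feedback regulators, 11 were higher and 10 lower, with a median of 0.0099. Rgs2, which limits signalling by Gq-coupled receptors, had 86.4, 112 and 85.7 CPM in RAG1-/- lungs against 51.7, 48.7 and 72.4 CPM in RAG1-/- Sgo1-/+ lungs. Its groups were apart, with a log2 fold change of -0.72 (SE 0.18, unadjusted P = 0.00245, adjusted P = 0.832, edgeR). Rgs1 was at 1.58 (SE 0.55), with 13.4 CPM in RAG1-/- Sgo1-/+ replicate 6 against 1.62 to 4.82 CPM elsewhere, and at 0.80 without that library. Socs3, the inhibitor of cytokine receptor signalling, was at 0.43 (SE 0.19) and at 0.17 without the same library. The ERK phosphatase Dusp6, named after its values were seen, had 199, 181 and 194 CPM against 171, 164 and 136 CPM, apart in the same direction as Dusp1.

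The 11 other mRNA decay factors, which include the relatives of Zfp36, had 6 higher and 5 lower with a median of 0.088. Of the 11, 3 were higher at an unadjusted P under 0.05 in the edgeR test, as were 3.15% of all genes tested. Zc3h12a, the RNase regnase-1, had 7.47, 7.68 and 9.99 CPM in RAG1-/- lungs against 12.1, 16.3 and 19.3 CPM in RAG1-/- Sgo1-/+ lungs, with no overlap (log2 fold change 0.92, SE 0.25, adjusted P = 0.832, edgeR). Khsrp, which recruits the decay machinery to AU-rich elements, was at 0.42 (SE 0.13), and the decapping enzyme Dcp2 at 0.30 (SE 0.12). The 20 upstream kinases and factors had 13 higher and 7 lower with a median of 0.037. Among them Crtc2, a coactivator of CREB, was at 0.33 (SE 0.13), Elk3, a ternary complex factor, at -0.30 (SE 0.14) and Braf at 0.27 (SE 0.13).

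**Figure D4:**
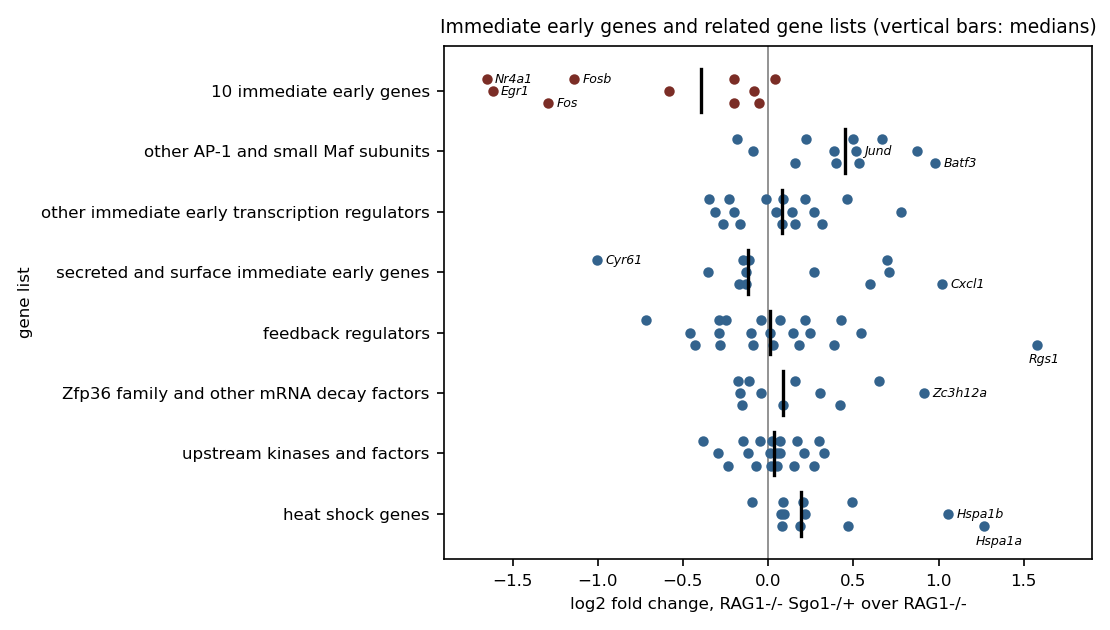
Log2 fold change of RAG1-/- Sgo1-/+ over RAG1-/- (horizontal axis) for each tested gene of 8 lists, 1 point per gene with small vertical offsets for legibility and vertical bars at the medians. The 10 immediate early genes have a median of -0.39, and the medians of the other lists lie between -0.12 and 0.45.

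Several markers of other cells moved between the libraries as well. The 8 neutrophil markers summed to 77.2 to 128 CPM in RAG1-/- and 27.3 to 64.1 CPM in RAG1-/- Sgo1-/+, and the 6 of them that were tested were all lower, while Ly6g had 0 reads in every library. The 6 red blood cell markers counted were all lower and summed to 2542 to 6847 CPM against 1952 to 3436 CPM. RAG1-/- replicate 3, the library with the highest immediate early average, also had the most red blood cell reads. RAG1-/- Sgo1-/+ replicate 4, with the lowest average, had the fewest of both these lists. The libraries between them did not keep this order. RAG1-/- replicate 1, with the next highest average, had 2542 CPM of red blood cell markers. RAG1-/- Sgo1-/+ replicate 5, with an average almost as low as that of replicate 4, had 3436 CPM. Neutrophil markers were highest in RAG1-/- replicate 1, at 128 CPM. Natural killer cell markers summed to 29.7 to 67.9 CPM against 21.2 to 35.4 CPM, with 7 of 8 lower, and Ncr1 had 0 reads in RAG1-/- Sgo1-/+ replicate 6. B and plasma cell markers summed to 654 CPM in RAG1-/- replicate 2 against 9.29 to 11.6 CPM elsewhere, and adipocyte markers to 968 CPM in RAG1-/- replicate 1 against 78.0 to 156 CPM. T cell markers summed to 39.2 CPM in RAG1-/- replicate 2 and 22.8 CPM in RAG1-/- Sgo1-/+ replicate 6 against 5.15 to 7.26 CPM elsewhere, although both genotypes should lack mature T cells. The sum of macrophage markers was highest in RAG1-/- Sgo1-/+ replicate 6, at 15001 CPM against 7794 to 10988 CPM, of which Chil3 gave 6083 CPM. The markers did not move together. Mrc1 (250 CPM) and Cd68 (63.0 CPM) were also highest in that library, while Lyz2 (8400 CPM) was not and Csf1r (73.0 CPM) was lowest there. Cardiac muscle markers were highest in RAG1-/- replicate 3 (252 CPM) and RAG1-/- Sgo1-/+ replicate 6 (235 CPM), against 136 to 202 CPM in the others. Fibroblast and smooth muscle markers summed to 834 to 1566 CPM in RAG1-/- lungs against 1056 to 1285 CPM in RAG1-/- Sgo1-/+ lungs. Among them the contractile genes Cnn1 (log2 fold change 0.96, SE 0.23) and Acta2 (0.74, SE 0.20), named after their values were seen, were higher with no overlap. Endothelial markers, at 2082 to 2139 CPM against 1736 to 2131 CPM, and epithelial markers, at 82476 to 105439 CPM against 86477 to 105436 CPM, differed less. The part of these cells in the levels of the 10 genes was not tested.

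Heat shock genes, which stress and tissue handling also induce, took their direction from RAG1-/- Sgo1-/+ replicate 4. Of 12 tested, 11 were higher and 1 lower in RAG1-/- Sgo1-/+, with a median of 0.19, but 6 were higher and 6 lower without that library. Their summed level was 3075 CPM there against 1933 to 2317 CPM elsewhere. In the edgeR test 0 passed an unadjusted P under 0.05, while 4 did without RAG1-/- Sgo1-/+ replicate 6, 1 without RAG1-/- replicate 1, and 3 without RAG1-/- replicate 2 and RAG1-/- Sgo1-/+ replicate 6 together. Among all genes tested in these settings, 850 of 17049, 1194 of 16829 and 611 of 16754 did. Hsp90ab1, the most abundant of them, was at 0.20 (SE 0.14), Hspa8 at 0.22 (SE 0.25), Hspd1 at 0.19 (SE 0.17), Dnaja1 at 0.088 (SE 0.23) and Hsp90aa1 at -0.093 (SE 0.17). The inducible Hspa1a, named after its values were seen, had 12.2, 6.47 and 15.1 CPM in RAG1-/- lungs against 54.5, 20.7 and 5.61 CPM in RAG1-/- Sgo1-/+ lungs. It was highest in RAG1-/- Sgo1-/+ replicate 4, where Egr1 and Fos were lowest, and lowest in replicate 6 of the same group. The part of tissue handling in these levels was not tested.

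The genes whose profile over the 6 libraries was most like the average profile of the 10 were found among 6981 genes. These had at least 60 reads in all and a spread above a set lower limit, with no upper limit. The smallest root mean square differences in centred log2 CPM were those of Lefty1 (0.149), Asb2 (0.156), Rps12-ps13 (0.166), Ncapg2 (0.180) and Ndufaf6 (0.191). Tipin (0.192), Snupn (0.194), Myom2 (0.196), Nup43 (0.203) and Mgmt (0.208) followed. All 10, which were picked for closeness, lay nearer to that average than any of the immediate early genes, which were not. This lead follows largely from that choice. Among the immediate early genes, Dusp1 (0.234) was nearest and Egr1 (0.834) farthest. With 6 libraries and 75 to 724 reads per gene, this order is a description of these libraries, and Rps12-ps13 is a pseudogene, whose count is uncertain because near-identical copies may share its reads.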

How the data were processed

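Total RNA of normal-looking lung was made into libraries with the Illumina TruSeq V2 kit and sequenced on a MiSeq. The authors deposited whole-number read counts per gene, not normalized, with Entrez Gene IDs on mouse Build 37.2. Each library is given under 2 headings with equal values, and the first was used. BWA and edgeR are named in the submitters' processing notes, and versions, strand setting and the treatment of reads with several matches are not given in the sources used here. Most counts of at least 10 were even (60.8% to 66.2% per library), so single counts may not be independent fragments. The authors also deposited columns of their own comparison (ratios and p-values), which were not used.

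Samples were grouped by the deposited titles, with 1 library per mouse. Symbols were matched for 24048 of 25860 IDs (93.0%) through a RefSeq table. The 17231 genes whose 6 libraries together held 10 counts or more were fitted with edgeR 4.0.16 in R 4.3.3 (quasi-likelihood test, total counts as library size, prior count 0.125). The call threshold was an adjusted P (Benjamini-Hochberg) below 0.05 with a 2-fold difference or more. The SE was taken as the fitted log2 difference over the root of F. Log2 CPM used a prior count of 2. The fit was tested on simulated data. P-values set the group difference against the spread between these 6 mice, estimated with information shared over all genes fitted.

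The members and the gene lists were chosen with earlier results of these data known, and the list tests are replaced by counts and medians. Named were all 10 members, the 3 genes of lowest unadjusted P per related list (for heat shock and cell type lists the 5 of highest CPM), and the 10 genes of most similar profile. Any further gene was picked with its values in view. Alternatives were TMM, DESeq2 1.42.0 size factors and test, limma-voom (limma 3.58.1), no filter, filterByExpr, a prior count of 2, ratios of group means, an unadjusted P, and each library left out. Added after seeing the data were halved counts and leaving out RAG1-/- replicate 2 and RAG1-/- Sgo1-/+ replicate 6 together. Promoters are RefSeq windows on GRCm38.p6, a later build than that of the counts. Transcript lengths are from GENCODE on GRCm38.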

Additional observations from a re-analysis of the deposited data

How the results depend on the processing

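The number of genes called was 0 under TMM, DESeq2 size factors, no filter, filterByExpr, limma-voom and halved counts. It was 1 with the DESeq2 test (Awat1, with 65 reads in RAG1-/- Sgo1-/+ replicate 6 and 0 elsewhere) and 233 when P was left unadjusted (below 0.05, 2-fold or more). With each library left out in turn it was 0 to 1. The 1 gene, without RAG1-/- Sgo1-/+ replicate 5, was H2-K1, with 2377, 1092 and 1510 reads in RAG1-/- lungs against 114, 2107 and 101 in RAG1-/- Sgo1-/+ lungs. All mice were bred on the C57BL/6 background, and the cause of this difference within the group was not tested. Both genes were named after their values were seen. The number of immediate early genes higher in RAG1-/- Sgo1-/+, 1 of 10, ranged from 0 to 3 with each library left out, and was 0 without RAG1-/- replicate 2 and RAG1-/- Sgo1-/+ replicate 6 together. Their median log2 fold change ranged from -0.64 to -0.33 with each library left out and was -0.70 without those 2. The order of the largest differences was not stable, since Egr1 (-2.06) and Fos (-1.55) were lower than Nr4a1 (-1.51) with limma-voom. Nr4a1, Egr1, Fos, Fosb, Dusp1 and Ier2 were lower under every alternative run. Atf3, Jun, Junb and Zfp36 changed sign when 1 library was left out. No paired analysis was run, because the sample labels give no pairing of mice between the groups. Fosb in RAG1-/- Sgo1-/+ rests on 16 to 36 reads per library.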
